A study of Mus musculus with 9 samples.

Results

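Crypt stem cell and Wnt target genes, 10 in number, were followed in the colon of wild-type mice. They were Lgr5, Ascl2, Smoc2, Axin2, Rnf43, Znrf3, Sox9, Ephb2, Ephb3 and Cd44. They were chosen by name from what they are known for, with earlier results of these data already known. They were found by symbol through the gene identifiers of the count files, and all 10 of them were among the 22262 genes with at least 1 count. RNA was available from 9 female C57BL/6N mice of 12 months. The standard environment (WT_SE) is represented by 4 of them, numbered 1, 2, 3 and 5, and the enriched environment (WT_EE) by 5, numbered 1 to 5. WT_SE mice lived in small groups in standard cages, and WT_EE mice lived 8 to a larger cage with added nesting material, tunnels and running wheels. Each library came from a rinsed piece of the upper colon of 2 to 3 cm, which holds epithelium, connective tissue and muscle together. Other mice of the experiment were not analysed here, and the labels do not say which mice shared a cage.

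The lining of the colon is renewed from stem cells at the bottom of pits called crypts. Wnt proteins made around the crypt base bind Frizzled and LRP receptors on these cells, which stops the destruction of beta-catenin, and beta-catenin then joins TCF factors on DNA to switch on target genes. R-spondins strengthen the signal by binding LGR5 and its relatives, which removes the ubiquitin ligases RNF43 and ZNRF3 that would otherwise clear Frizzled from the cell surface. In whole tissue, fewer crypt base cells and less RNA per crypt base cell cannot be told apart.

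Expression was measured as counts of molecules next to the poly(A) tail (3′ RNA-sequencing with unique molecular identifiers), so that long transcripts give no more counts than short ones. Highly counted genes rose less than in proportion to the library total, as described further on, so ratios between the levels of highly and weakly counted genes depend on depth. Library totals lay between 299062 and 383401 counts for WT_SE, and between 295535 and 454043 for WT_EE. Levels are given as CPM, the counts of a gene scaled to a common library total, after TMM normalization in edgeR. The floor for a detectable level, 3 counts, corresponded to between 6.61 and 10.15 CPM, and it covers counting error only. None of the 10 genes was at or under this floor in any library. All 11 listed epithelial markers were counted, with summed levels of 2932 to 3600 CPM in WT_SE and 3143 to 3986 CPM in WT_EE. Olfm4, which marks stem cells of the mouse small intestine and not of the colon, had 2 counts over all 9 libraries.

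TCF factors recognise short DNA letters around the core CTTTGA, and the start regions of the crypt genes were read for this core. The reference table, from RefSeq on GRCm38.p6, held 7 windows of 300 bases (250 before and 50 after a transcription start) for 6 of the 10 genes. Entries were found for Axin2, Ascl2, Rnf43, Ephb2, Ephb3 and Cd44. The core CTTTGA or its reverse TCAAAG was in 0 of these 7 windows and in 16.0% of all 32851 windows, and the longer forms CTTTGAT and CTTTGAA, counted within the core matches, were in 3.73% and 5.14% of all windows. The 250 bases before the start are shown for Axin2, the standard target gene of the pathway, and for Ascl2, the stem cell transcription factor. No letters are in capitals because capitals would mark the core. The first lies at chr11:108920099-108920348 (plus strand) and the second at chr7:142969265-142969514 (minus strand).
Axin2: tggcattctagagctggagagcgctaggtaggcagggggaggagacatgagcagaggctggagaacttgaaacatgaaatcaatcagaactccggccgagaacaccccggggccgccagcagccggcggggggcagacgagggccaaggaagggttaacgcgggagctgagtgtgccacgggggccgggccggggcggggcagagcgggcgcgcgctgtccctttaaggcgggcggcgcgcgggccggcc
Ascl2: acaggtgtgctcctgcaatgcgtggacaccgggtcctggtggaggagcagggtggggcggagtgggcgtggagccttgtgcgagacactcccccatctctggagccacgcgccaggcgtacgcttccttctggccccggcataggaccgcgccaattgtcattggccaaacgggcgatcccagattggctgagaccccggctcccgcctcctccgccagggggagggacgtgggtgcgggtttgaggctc
The windows are short and sites further away were not read.

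The 10 genes covered a wide range of levels. Over all 9 libraries, Sox9 had the highest mean with 304.6 ± 58.2 CPM (SD, n = 9), followed by Cd44 with 197.6 ± 27.0 CPM and Axin2 with 99.0 ± 13.9 CPM. Sox9 was above Cd44 in 9 of 9 libraries, and Cd44 was above Axin2 in 9 of 9. Below them, Ephb3 (86.3 ± 28.4 CPM) and Ephb2 (86.1 ± 19.3 CPM) were at nearly the same level, with Axin2 above Ephb3 in 7 of 9 libraries and Ephb3 above Ephb2 in 6 of 9. Smoc2 (59.1 ± 23.2 CPM) and Rnf43 (37.7 ± 16.6 CPM) were intermediate and changed places between mice, Smoc2 being the higher in 5 of 9. Lgr5 (28.6 ± 13.8 CPM), Ascl2 (27.8 ± 10.1 CPM) and Znrf3 (24.7 ± 7.50 CPM) were the least counted, and the order among these 3 genes was not set by these libraries, as Lgr5 was above Ascl2 in 2 of 9 and equal in 2 of 9. These 3 genes were read from few molecules, a mean of 10.8 counts per library for Lgr5, 10.6 for Ascl2 and 9.44 for Znrf3. For Sox9 the mean was 111.

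**Figure D1:**
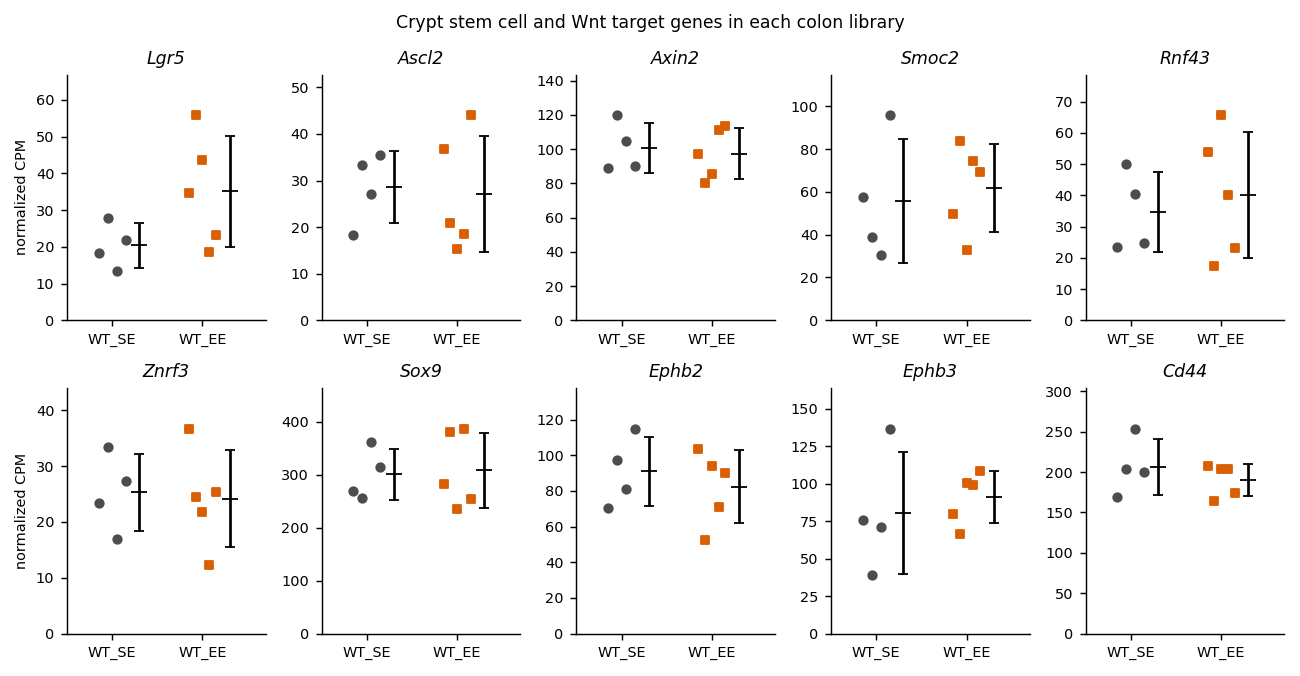
Normalized CPM (y axes, from 0, a scale of its own for each gene) of the 10 genes in each library, WT_SE as grey circles (n = 4) and WT_EE as orange squares (n = 5), with the mean and SD in black. The 2 groups overlap for every gene, and for Lgr5 3 of the 5 WT_EE mice, at 34.5 to 55.8 CPM, lie above the highest WT_SE mouse at 27.85 CPM.

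WT_EE was compared with WT_SE by edgeR's quasi-likelihood test over 17441 genes that reached 4 CPM in 1 library or more, to ask whether housing went with the level of crypt genes. Folds and their 95% intervals below are those fitted by edgeR and can differ from the ratio of the mean CPM. At an unadjusted p-value under 0.05, the limit the study names, 1 of the 10 genes was called, Lgr5, which was higher in WT_EE. Of all genes tested, 7.65% were called at this limit, 4.31% higher and 3.34% lower, so that 1 of 10 was near the background. After Benjamini-Hochberg adjustment over all genes tested 0 of the 10 passed, with adjusted edgeR p-values of 0.629 to 0.990, as against 7 of all genes (0.0401%). The groups overlapped for all 10 genes, while they did not overlap for 2.58% of all genes tested. Of the log2 fold changes, 5 were above and 5 were below 0, with a median of -0.01 beside 0.01 for all genes. The summed level of the 10 genes was 944.0 ± 109.1 CPM in WT_SE (n = 4) and 957.4 ± 53.6 CPM in WT_EE (n = 5), within the ranges 814.4 to 1061 and 898.3 to 1036.

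**Figure D2:**
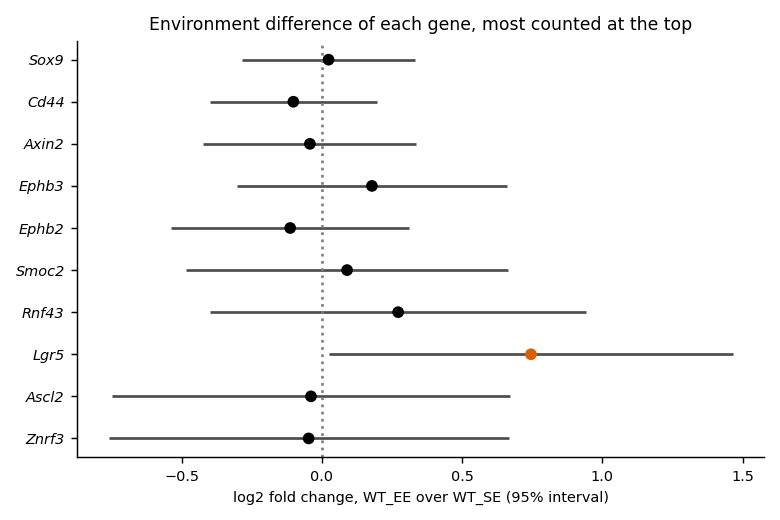
Log2 fold change of each gene, WT_EE over WT_SE, with its 95% interval from edgeR (x axis), ordered by mean level with the most counted gene at the top. Only the interval of Lgr5 (orange, unadjusted p = 0.0429 in edgeR) lies above 0, and intervals widen towards the least counted genes at the bottom.

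Lgr5 encodes the R-spondin receptor that marks crypt base stem cells (ENSMUSG00000020140, chr10:115450311-115587780, minus strand, GRCm38). Its level was 18.3, 27.85, 13.5 and 21.9 CPM in WT_SE mice 1, 2, 3 and 5, and 34.5, 55.8, 43.7, 18.6 and 23.1 CPM in WT_EE mice 1 to 5. WT_EE mice 1, 2 and 3 were above all WT_SE mice, and WT_EE mice 4 and 5 were inside the WT_SE range. The counts behind these levels were 4 to 10 in WT_SE and 6 to 20 in WT_EE. The mean rose from 20.4 ± 6.04 CPM (SD, n = 4) to 35.1 ± 15.2 CPM (n = 5). The fold fitted by edgeR was 1.68 with a 95% interval of 1.02 to 2.76 (log2 fold change 0.75, SE 0.36, unadjusted p = 0.0429, adjusted p = 0.629, edgeR). The two-sided exact permutation test over mice gave p = 0.0952, where 0.00794 is the smallest this design allows.

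The Lgr5 call depended on single mice. It was lost in edgeR when WT_SE mouse 1 (unadjusted p = 0.0865), mouse 3 (unadjusted p = 0.103) or mouse 5 (unadjusted p = 0.0561) was left out, and when WT_EE mouse 1 (unadjusted p = 0.0543), mouse 2 (unadjusted p = 0.125) or mouse 3 (unadjusted p = 0.103) was left out. Lgr5 stayed higher in WT_EE in each of these fits, with log2 fold changes between 0.57 and 0.93 over all single omissions. In the labels, 2 library names, those of WT_SE mice 1 and 3, end differently from the other 7, and these mice had the lowest WT_SE levels of Lgr5. Without them the log2 fold change of Lgr5 was 0.49 (unadjusted p = 0.252, edgeR). No WT_EE library carries that ending, so that environment and ending can be told apart only through WT_SE mice 2 and 5. With epithelial counts as the offset, the value was 0.70 (unadjusted p = 0.0769, edgeR). This offset was summed from markers that are mostly highly counted, such as Cdh1 with 1507 counts over all 9 libraries. Counts of such genes rose less than in proportion to the library total, so the fit does not separate epithelial content from depth. The part of epithelial content in the difference was not tested.

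Ascl2, the transcription factor that keeps crypt base cells in the stem cell state (ENSMUSG00000009248, chr7:142966829-142969264, minus strand), had another order of mice than Lgr5. Its level was 18.3, 33.4, 27.1 and 35.5 CPM in WT_SE mice 1, 2, 3 and 5. In WT_EE mice 1 to 5 it was 36.7, 20.9, 15.3, 18.6 and 44.0 CPM. WT_EE mice 2 and 3, which had the highest Lgr5 levels, were at the low end for Ascl2. The means were 28.6 ± 7.75 CPM (n = 4) and 27.1 ± 12.5 CPM (n = 5). The fold was 0.973 with an interval of 0.595 to 1.59 (adjusted p = 0.990, edgeR). Differences in either direction within that interval are compatible with these counts and mice.

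Smoc2, a secreted matrix protein enriched in Lgr5 stem cells and also made by connective tissue cells (ENSMUSG00000023886, chr17:14279506-14404790, plus strand), varied more between mice than between environments. In WT_SE its level was 57.4, 39.0, 30.4 and 95.7 CPM. In WT_EE it was 49.7, 83.7, 32.8, 74.2 and 69.4 CPM. The lowest and the highest mouse of the study were both WT_SE mice. The means of 55.6 ± 29.0 CPM (n = 4) and 62.0 ± 20.5 CPM (n = 5) differed by less than the spread within either group (fold 1.06, interval 0.714 to 1.59, adjusted p = 0.963, edgeR).

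Axin2, Rnf43 and Znrf3 are switched on by Wnt signaling and damp it in turn. Axin2 encodes the scaffold of the complex that destroys beta-catenin (ENSMUSG00000000142, chr11:108920349-108950783, plus strand), and it was the steadiest of the 10 genes relative to its counting error. It lay between 88.75 and 119.7 CPM in WT_SE and between 80.2 and 113.4 CPM in WT_EE, with means of 100.9 ± 14.5 CPM (n = 4) and 97.5 ± 14.95 CPM (n = 5). The fold was 0.971 with an interval of 0.746 to 1.26 (adjusted p = 0.971, edgeR). The coefficient of variation of Axin2 over the 9 libraries, 14.1%, was no larger than the 16.4% that counting alone would give at its mean count.

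Rnf43, a ligase that removes Frizzled (ENSMUSG00000034177, chr11:87662722-87735539, plus strand), was at 23.5, 50.1, 40.6 and 24.6 CPM in WT_SE and at 54.0, 17.4, 65.6, 40.2 and 23.1 CPM in WT_EE. Its 3.76-fold range across mice ran through both environments, and the means were 34.7 ± 12.9 CPM (n = 4) and 40.1 ± 20.3 CPM (n = 5; fold 1.21, interval 0.759 to 1.92, adjusted p = 0.901, edgeR). Znrf3, the related ligase (ENSMUSG00000041961, chr11:5276324-5444847, minus strand), lay between 16.9 and 33.4 CPM in WT_SE and between 12.4 and 36.7 CPM in WT_EE. Its fold was 0.968 with an interval of 0.591 to 1.59 (adjusted p = 0.987, edgeR). The spread of Znrf3 over libraries, 30.4%, was also no larger than its counting error of 32.5%.

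Sox9 and Cd44 are Wnt targets that are active beyond the stem cells. Sox9, a transcription factor of the lower crypt that is also made by enteric glia (ENSMUSG00000000567, chr11:112782224-112787760, plus strand), was at 268.9, 256.2, 361.9 and 314.3 CPM in WT_SE. It was at 282.8, 380.0, 236.1, 386.6 and 254.5 CPM in WT_EE. The means of 300.3 ± 48.0 CPM (n = 4) and 308.0 ± 70.8 CPM (n = 5) gave a fold of 1.02 with an interval of 0.820 to 1.26 (adjusted p = 0.985, edgeR). Its log2 fold change of 0.02 was -0.014 with upper quartile normalization and -0.041 with the epithelial offset, which also moved the median of all genes from 0.01 to -0.036 and -0.041.

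Cd44, a hyaluronan receptor of crypt base cells and of leukocytes (ENSMUSG00000005087, chr2:102811141-102901665, minus strand), lay between 169.7 and 253.6 CPM in WT_SE and between 163.8 and 207.3 CPM in WT_EE. The highest value, in WT_SE mouse 3, was above all WT_EE mice, and the other WT_SE mice were within the WT_EE range. The fold was 0.932 with an interval of 0.758 to 1.15 (adjusted p = 0.915, edgeR), which is the narrowest interval among the 10 genes together with that of Sox9. The summed level of the leukocyte markers was 202.9 to 389.8 CPM in WT_SE and 157.7 to 351.9 CPM in WT_EE. Of the 15 listed leukocyte genes, 14 had a count and Cd79a had none, and their part in the Cd44 level was not tested.

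Ephb2 and Ephb3 encode receptors for ephrin-B ligands that keep proliferating cells at the bottom of the crypt. Ephb2 (ENSMUSG00000028664, chr4:136647539-136835988, minus strand) was at 70.5, 97.5, 81.2 and 114.8 CPM in WT_SE and at 103.6, 52.3, 94.0, 71.1 and 90.2 CPM in WT_EE. Ephb3 (ENSMUSG00000005958, chr16:21204755-21223305, plus strand) was at 75.7, 39.0, 71.0 and 136.7 CPM in WT_SE and at 79.9, 66.2, 100.5, 99.0 and 108.7 CPM in WT_EE. WT_SE mouse 5 had the highest level of both receptors, and WT_SE mouse 2 had the lowest of Ephb3. The fold was 0.925 for Ephb2 (interval 0.689 to 1.24, adjusted p = 0.935, edgeR) and 1.13 for Ephb3 (interval 0.810 to 1.58, adjusted p = 0.915, edgeR). Without WT_SE mouse 5, Ephb3 was higher in WT_EE, with a log2 fold change of 0.57 (unadjusted p = 0.0244, edgeR), so that this mouse decided whether Ephb3 was called.

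The spread of CPM over the 9 libraries was set beside counting error. The coefficient of variation was 48.1% for Lgr5 beside 30.5% from counting at its mean count, 44.1% beside 26.2% for Rnf43, and 39.1% beside 21.4% for Smoc2. It was 32.9% beside 17.5% for Ephb3. For Sox9 it was 19.1% beside 9.49%. Sox9 counts lay between 92 and 131 in all libraries, and the part of the library totals in this spread of CPM was not tested. The coefficient of variation came closer to counting for Ascl2 (36.3% beside 30.8%), Ephb2 (22.4% beside 17.4%) and Cd44 (13.7% beside 11.7%), and did not exceed it for Axin2 and Znrf3. These counting errors assume the same depth in every library, and how much of the remaining spread is between mice was not tested.

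Counts of the 10 genes did not all follow the library total. If a gene takes a fixed share of a library, the slope of its log count on the log total over libraries is 1. The slope was 0.16 for Sox9, whose counts stayed between 92 and 131 in all 9 libraries. It was 0.79 for Smoc2, 0.999 for Cd44 and 1.13 for Axin2. It was between 1.6 and 2.26 for Ascl2, Lgr5, Ephb3, Ephb2, Znrf3 and Rnf43. Summed over all genes, the slope was 0.55 for the 856 genes whose mean lay from 80 to 120 counts, 1.35 for genes with 10 to 20 and 1.30 for genes with 20 to 40. Sox9, Smoc2 and Axin2 lay below the value of their band, and Cd44 was near its own, 1.04. Rnf43, Ephb2, Ephb3, Lgr5, Ascl2 and Znrf3 lay above theirs, which was 1.31 for Znrf3 in the band from 5 to 10 counts. Normalized levels of Sox9 therefore tended to fall with depth, and the 3 mice with the highest Sox9 levels, WT_SE mouse 3 and WT_EE mice 2 and 4, had the lowest totals, 299062, 295535 and 336967 counts. The part of this compression of highly counted genes in the levels was not tested. With the log2 total as a covariate, the log2 fold change of Sox9 was 0.17 (unadjusted p = 0.143, edgeR), that of Ephb2 was -0.32, that of Znrf3 was -0.25 and that of Rnf43 was 0.048. Lgr5 was at 0.78 in the same fit (unadjusted p = 0.0466, edgeR).

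**Figure D3:**
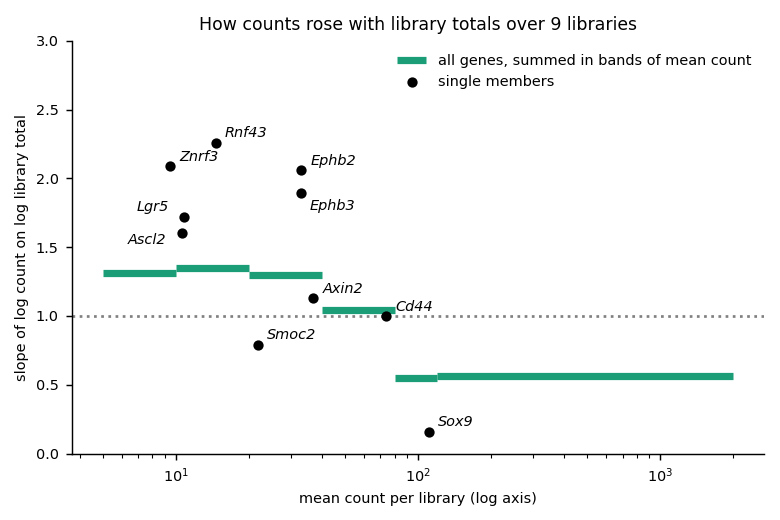
Slope of the log count on the log library total over the 9 libraries (y axis) against the mean count per library (x axis, log scale), for the 10 genes as black points and for all genes summed in bands of mean count as green bars; the dotted line at 1 marks a fixed share of the library. Sox9, the most counted of the 10, lies at 0.16, beside bars of about 0.55, while 6 of the other genes lie above 1.5.

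Levels of Rnf43 and Smoc2 went with a marker of position along the gut. Slc10a2, the bile acid transporter of the ileum, had 103 to 117 counts in 4 libraries (WT_SE mice 2 and 3, WT_EE mice 1 and 3) and 3 to 26 counts in the other 5. In these 4 libraries Rnf43 was at 40.6 to 65.6 CPM, and in the other 5 at 17.4 to 40.2 CPM, without overlap, although the nearest values, 40.6 and 40.2 CPM, rest on 12 and 13 counts and are alike within counting error. Smoc2 was at 30.4 to 49.7 CPM in the 4 libraries and at 57.4 to 95.7 CPM in the other 5, also without overlap and in the opposite direction. The other 8 genes overlapped between these libraries, Cd44 by the least, at 203.3 to 253.6 CPM against 163.8 to 204.1 CPM. Of all genes tested 2.91% did not overlap in this way, beside 2 of the 10 crypt genes. The libraries were parted by a measured gene and not by a label, so these values are a description, and they were not tested. Both environments were in both sets of libraries, and with Slc10a2 as a covariate the environment log2 fold change was 0.80 for Lgr5 (unadjusted p = 0.0352, edgeR) and -0.28 for Smoc2 (unadjusted p = 0.285), which turned its sign. That of Rnf43 was 0.57 (unadjusted p = 0.0632, edgeR), beside 0.27 without the covariate.

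**Figure D4:**
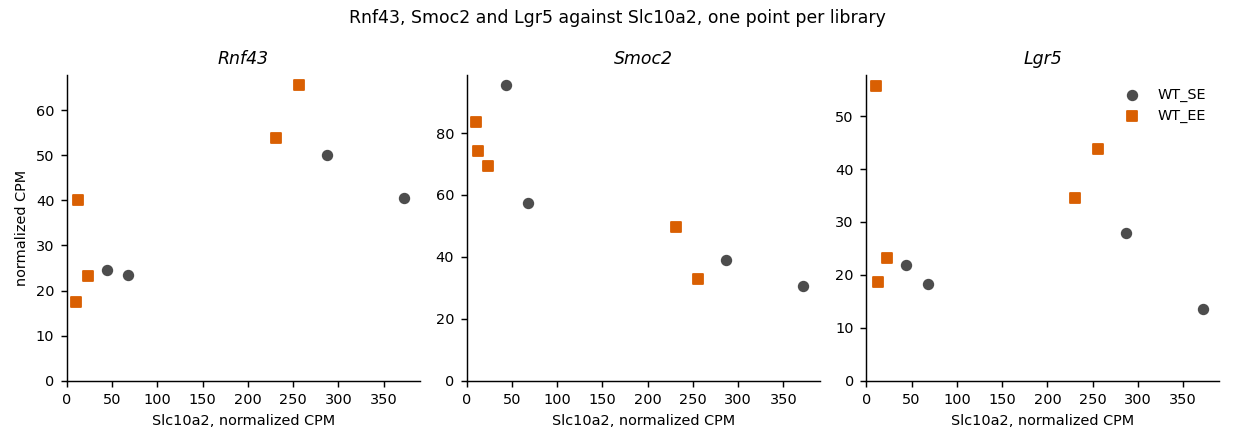
Normalized CPM of Rnf43, Smoc2 and Lgr5 (y axes, from 0) against normalized CPM of Slc10a2 (x axes), 1 point per library, WT_SE as grey circles and WT_EE as orange squares. The 4 libraries high in Slc10a2 have the higher Rnf43 (40.6 CPM and above) and the lower Smoc2 (49.7 CPM and below), while Lgr5 is spread over both.

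The 10 genes did not rise and fall as a block. Among the 9 of them with a mean of at least 10 counts, Pearson's r of log2 CPM over the 9 libraries was positive for 18 of 36 pairs, with a median of -0.02. Rnf43 and Cd44 were the most alike (r = 0.66), followed by Ascl2 and Ephb2 (r = 0.57), and Smoc2 and Rnf43 were the most opposed (r = -0.75). Lgr5 had no r above 0.09 with any of the others. Among the 5 genes most like the mean profile of these 9 genes, out of 5806 genes with a mean of at least 20 counts, were AW209491 (r = 0.88), Arfrp1 (r = 0.88), Ccdc91 (r = 0.86) and Snhg1 (r = 0.84). All points share the same 9 libraries and their depth, and these values are descriptions.

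Other genes of the crypt base were read from a list. Of 16 tested, 2 were higher and 1 lower in WT_EE at the unadjusted limit in edgeR, with a median log2 fold change of 0.04. Of all genes tested 4.31% were called higher and 3.34% lower, and these shares also stand beside the lists that follow. Fstl1, a secreted glycoprotein made largely by connective tissue cells, rose from 60.7 ± 25.1 CPM (n = 4) to 118.2 ± 31.8 CPM (n = 5; log2 fold change 0.89, SE 0.24, adjusted p = 0.174, edgeR). Hopx, which marks slowly dividing crypt cells, rose by 0.56 on the log2 scale (SE 0.21, unadjusted p = 0.0125, edgeR), and Bmi1, a Polycomb protein with a like use as a marker, fell by 0.66 (SE 0.30, unadjusted p = 0.0362, edgeR). The groups of these 3 genes did not overlap, as was so for 2.58% of all genes tested. The most counted genes of the list were Slc12a2, Prom1 and Aqp4, with unadjusted edgeR p-values of 0.110, 0.784 and 0.0708.

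Of 18 other Wnt target genes tested, 2 were higher and 2 lower in WT_EE, with a median log2 fold change of 0.02. Nkd2, an inhibitor of the pathway, was higher (43.2 ± 14.97 CPM in WT_SE, n = 4, and 68.8 ± 19.5 CPM in WT_EE, n = 5; unadjusted p = 0.0234, edgeR). Myc, a driver of growth, was also called higher (unadjusted p = 0.0404, edgeR) on few molecules, 0 to 4 per WT_SE library and 2 to 15 per WT_EE library. Cdx2, the transcription factor of intestinal identity, was lower (106.1 ± 9.47 CPM and 66.2 ± 15.1 CPM; log2 fold change -0.67, SE 0.20, adjusted p = 0.244, edgeR), without overlap and in 25 of 25 alternative fits. Tiam1, an activator of Rac, was lower without overlap (log2 fold change -0.62, SE 0.26, unadjusted p = 0.0220, edgeR). The most counted targets, Ccnd1, Ets2 and Cdx1, had log2 fold changes of 0.00, 0.03 and -0.11 and were not called.

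Upstream genes were counted at very different levels. Of 25 Wnt and R-spondin genes with their secretion factors, 9 were tested, and 4 of these were at or under the floor in every library. Wls, the carrier needed to secrete Wnt proteins, was the most counted (224.4 ± 32.5 CPM in WT_SE and 200.9 ± 20.3 CPM in WT_EE), followed by Wnt5a and Rspo3, none of which was called. Rspo2 was called by the fit, but all its counts were at or under the floor, so no fold is given. Of 17 receptors tested 1 was called, Fzd5, a Frizzled of the intestinal epithelium. It fell by 0.44 on the log2 scale (SE 0.17, unadjusted p = 0.0123, edgeR), and the well counted Lrp6 and Ryk were not called. Of 10 secreted antagonists tested 1 was called, Frzb, a secreted Frizzled-related protein, which was higher (log2 fold change 1.19, SE 0.48, unadjusted p = 0.0167, edgeR), while Sfrp1, Dkk3 and Kremen1 were not.

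Inside the cell, Apc, the scaffold that holds beta-catenin for destruction, fell from 236.0 ± 24.5 CPM (n = 4) to 179.5 ± 21.5 CPM (n = 5) without overlap (log2 fold change -0.40, SE 0.14, unadjusted p = 0.00781, adjusted p = 0.405, edgeR). It was the only one called of 14 genes of the destruction complex, and beta-catenin itself (Ctnnb1), Csnk1a1 and Gsk3b were not called. None of 12 TCF factors and co-factors tested was called (the lowest unadjusted edgeR p was 0.0777), among them Tcf7l2, Ctnnbip1 and Tle4. None of 5 ephrins and other EphB receptors tested was called either (the lowest unadjusted edgeR p was 0.0774), with Efnb1, Efnb2 and Ephb4 the most counted. Over all 75 Wnt pathway genes tested in these lists, 8 were called, 3 higher and 5 lower with Rspo2 among them, beside 7.65% of all genes, and 0 passed the adjustment. Their median log2 fold change was 0.02.

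Among genes of the tissue around the stem cells, 2 of 16 tested were higher and 0 were lower, beside 4.31% and 3.34% of all genes. Their median log2 fold change was 0.20. Grem1, a BMP antagonist of the cells under the crypt, was at 73.8 ± 47.3 CPM (n = 4) and 125.9 ± 49.6 CPM (n = 5; unadjusted p = 0.0179, edgeR), and Bmp2 was at 133.0 ± 19.7 and 180.2 ± 46.1 CPM (unadjusted p = 0.0226, edgeR). Cd81 and Bmp4, also well counted, were not called. Of 15 cell cycle genes, Mki67 was called lower (166.1 ± 26.5 and 116.3 ± 29.7 CPM, unadjusted p = 0.00622, edgeR), and Top2a and Birc5 were not called. When the ending of library names was added to the fit, Fstl1 (unadjusted p = 0.00669), Hopx (unadjusted p = 0.00995) and Cdx2 (unadjusted p = 0.0266, edgeR) kept their calls. The other genes of these lists named as called had unadjusted edgeR p-values above the limit in that fit, which rests on WT_SE mice 2 and 5. With Slc10a2 as a covariate, Grem1 was at 0.27 on the log2 scale (unadjusted p = 0.216, edgeR) beside 0.69 without it. Bmp2 (unadjusted p = 0.0995), Nkd2 (unadjusted p = 0.110), Frzb (unadjusted p = 0.105) and Tiam1 (unadjusted p = 0.0648, edgeR) were not called in that fit either.

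**Figure D5:**
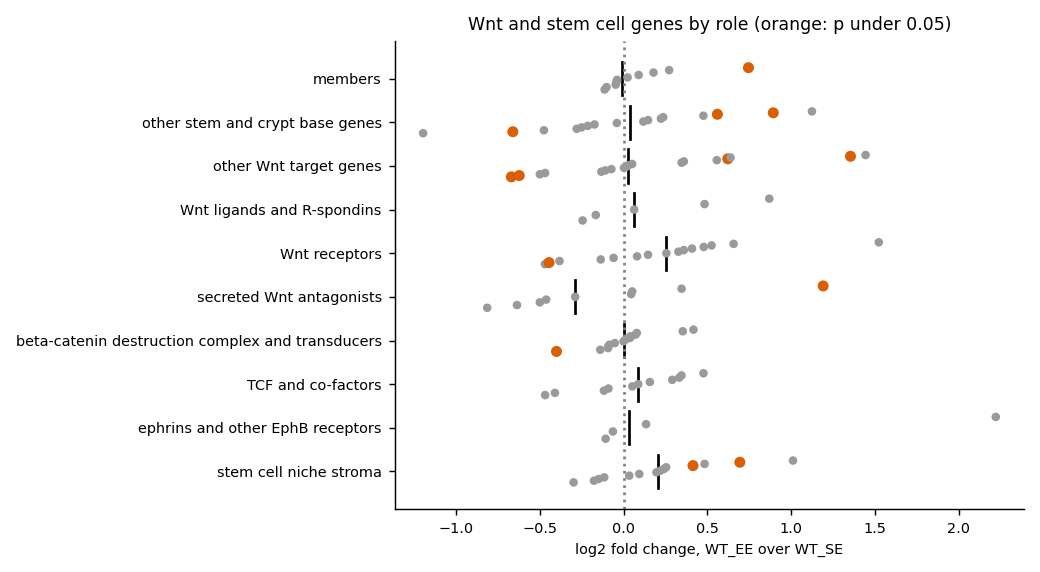
Log2 fold change, WT_EE over WT_SE (x axis), of every tested gene of 10 lists (rows) that was above 3 counts in at least 1 library, with a black bar at the median of the genes drawn. Orange points have an unadjusted edgeR p under 0.05, and rows with more than 1 of them have them on both sides of 0, except the stem cell niche stroma, where both lie above 0.

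Markers of other cell types were read beside these results. Smooth muscle markers summed to 1994 to 2545 CPM in WT_SE and 1921 to 3563 CPM in WT_EE. The highest sums were those of WT_EE mice 2 and 4, and the other WT_EE mice were at 1921 to 2404 CPM. Of 8 genes 3 (Acta2, Des and Lmod1) were called higher, beside 4.31% of all genes. These 3 genes were not called with the ending of library names in the fit (unadjusted p = 0.133, 0.0768 and 0.488, edgeR). With Slc10a2 as a covariate they were not called either (unadjusted p = 0.761, 0.386 and 0.225, edgeR). Fat markers summed to 105.8 to 1209 CPM in WT_SE and 122.6 to 644.8 CPM in WT_EE, the highest being WT_SE mouse 1. Plin1 was called lower, but its sign changed in 3 of 24 alternative fits, to a log2 fold change of 1.79 with the ending of library names in the fit. Of 13 colonocyte genes Aqp8 and Clca4a were called higher and Tmigd1 lower, of 8 goblet cell genes Clca1 was called higher and Tff3 lower, and of 11 epithelial genes Lgals4 was called higher. With Slc10a2 as a covariate Aqp8 (unadjusted p = 0.387), Clca4a (unadjusted p = 0.230), Tmigd1 (unadjusted p = 0.0812) and Clca1 (unadjusted p = 0.0531, edgeR) were not called. Tff3 (unadjusted p = 0.00604) and Lgals4 (unadjusted p = 0.0429, edgeR) kept their calls in that fit. With the ending of library names in the fit, Tff3 (unadjusted p = 0.0933) and Lgals4 (unadjusted p = 0.246, edgeR) were not called. Aqp8 (unadjusted p = 0.229), Clca4a (unadjusted p = 0.116) and Tmigd1 (unadjusted p = 0.143, edgeR) were not called there either. Clca1 kept its call with the ending (unadjusted p = 0.0201, edgeR). Ms4a1 of B cells was called on 21 counts in all, 0 to 9 per WT_SE library and 0 to 2 per WT_EE library. Every WT_EE library was thus at or under the floor, so no fold is given. Its groups overlapped, and the exact permutation test gave p = 0.238. Cd79b was called on 4 counts in all that were at or under the floor in every library, so no direction is given. Of 6 posterior Hox genes Hoxa11 was called higher and Hoxd11 lower. With Slc10a2 as a covariate Hoxa11 kept its call (unadjusted p = 0.0301) and Hoxd11 did not (unadjusted p = 0.0608, edgeR). Hoxb13, which was not called, ran from 0 to 56 counts in WT_SE and from 0 to 45 in WT_EE. Fits with epithelial counts, posterior Hox genes and Slc10a2 were run, the first with the limit of depth given for Lgr5. The part of the makeup of the tissue pieces in the values of the 10 crypt genes was not tested beyond them.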

How the data were processed

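Colon RNA of 4 WT_SE and 5 WT_EE mice was analysed. Per the labels, libraries were made with the Lexogen QuantSeq 3′ kit, and the submitters' processing notes name fastp 0.20.0, STAR 2.7.0f, GRCm38.p6, featureCounts 1.6.0 and UMI-tools, without a strand setting. The authors deposited whole-number counts of molecules per gene and mouse, not normalized. The totals and the floor of 3 counts are given with the results.

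Genes were named and placed with GENCODE mouse release M21 on GRCm38. Those that reached 4 CPM in 1 library or more were compared in R 4.3.3 with edgeR 4.0.16 (TMM, quasi-likelihood F test, environment as the only term, Benjamini-Hochberg over all genes tested). A call is an unadjusted p under 0.05. Intervals are 95%. Log2 CPM for likeness used a prior count of 2. For single genes an exact two-sided permutation test used all 126 divisions of the mice (python 3.11.15, scipy 1.17.1, numpy 2.4.6, pandas 2.3.3). Figures used matplotlib 3.10.9. The fit was run on simulated counts that rose in proportion to the library totals and held large changes only. That run does not cover the depth slopes and the small folds seen here. Pairs of mice of one environment had a chi-square per degree of freedom of 1.17 to 2.30, so none was taken as a library deposited more than once. Only 1110028F11Rik, inside Rnf43, overlaps one of the 10 genes and has any counts.

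The 10 genes and all lists were chosen with earlier results of these data known. The named genes are the 10, every listed gene that was called, the 3 most counted in each Wnt or niche list, and the 5 genes most like the 10, and some of these are not reported here. Alternatives were other filters, normalizations and tests (DESeq2 1.42.0 and limma-voom from limma 3.58.1), a block for the mouse number, the ending of library names, posterior Hox genes, epithelial counts and each mouse left out. The library total, Slc10a2 and the newer quasi-likelihood form were added after seeing the data.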

Additional observations from a re-analysis of the deposited data

How the results depend on the processing

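Lgr5 was higher in WT_EE under all 26 alternatives run and kept its call under 12 of them. The number of the 10 genes called was 0 with edgeR's filterByExpr, with upper quartile normalization, with DESeq2, with limma-voom, with the ending of the library names as a covariate, without the libraries of that ending, with epithelial counts as the offset, at an adjusted p under 0.05 and at an unadjusted p under 0.01, and 0 to 1 with single mice left out. Unadjusted p-values of Lgr5 ran from 0.0106 to 0.264. The number of all genes called fell from 1334 to 804 with filterByExpr, 643 with DESeq2, 688 with the ending as a covariate and 680 without its libraries, and was 899 to 1581 with single mice left out, 899 being without WT_SE mouse 3. The share of calls that were higher in WT_EE was 56.3%, 45.0% with upper quartile normalization and 40.7% with the epithelial offset. Called Wnt pathway genes numbered 5 with filterByExpr, 4 with DESeq2, 2 with the ending, 2 without its libraries, 5 with Slc10a2 as a covariate, and 5 to 14 with single mice left out (5 without WT_SE mouse 3, 14 without WT_SE mouse 5). Signs of small log2 fold changes turned for Smoc2 (-0.17 with the ending, -0.15 without its libraries, -0.28 with Slc10a2), Znrf3 (0.045 with Slc10a2) and Sox9 (-0.014 with upper quartile, -0.011 with limma-voom, -0.041 with the epithelial offset, -0.085 with Slc10a2). Upper quartile normalization and the epithelial offset moved the median of all genes from 0.01 to -0.036 and -0.041, about as far as Sox9. With single mice left out they ran from -0.28 to 0.14 for Ascl2, -0.099 to 0.056 for Axin2, -0.082 to 0.49 for Smoc2, 0.018 to 0.52 for Rnf43, -0.26 to 0.11 for Znrf3, -0.065 to 0.13 for Sox9, -0.22 to 0.028 for Ephb2, -0.051 to 0.57 for Ephb3 and -0.18 to 0.014 for Cd44. The cause of these changes was not tested, apart from the fewer genes or libraries some alternatives use. Mice with the same number in both environments are different animals, and over 5812 genes their deviations from the group means correlated at -0.02, 0.05, 0.15 and 0.15, so that the numbers do not pair the mice. With the number as a replicate block 1160 genes and Lgr5 were called, and the log2 fold change was 0.055 for Ascl2, 0.12 for Znrf3 and -0.074 for Sox9. The deposited counts give about 10 molecules per library for Lgr5, Ascl2 and Znrf3, which limits what differences can be seen. Where nothing says that mice were housed apart, p-values measure the spread between these mice and not between cages.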
